A study of Mus musculus with 6 samples.

Results

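The genes described here belong to the PTHrP and hedgehog pathways. They were chosen by name from a list of 9 genes, taking every probe set to which the platform annotation gives exactly 1 gene symbol from that list. By this rule 8 of the 9 genes, of 18193 named genes on the arrays, were represented, with 18 probe sets, and the ninth, Pthlh, is not analysed here. A probe set is a group of short array probes read together as 1 signal. Expression was measured in the bones of the skull vault (calvaria) of mice aged 10 days. One group was 13del-tg mice, which express a Col10a1-13del transgene and show bone overgrowth per the labels, and the other was their wild-type littermates, called control. Per the labels there were 3 biological replicates per genotype, with 1 Affymetrix mouse array for each. Which promoter drives the transgene is not given in the sources used here. All 45101 values deposited as control 1 equalled those of 13del-tg 1, so the array behind them, called the shared array, is shown apart and belongs to neither group. The comparison is 13del-tg 2 and 3 against controls 2 and 3, and exact permutation of 2 arrays against 2 cannot give a two-sided p below 0.333.

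Hedgehog ligands act by binding the receptor Ptch1, which otherwise keeps the membrane protein Smo inactive. Active Smo leads the Gli transcription factors to switch on target genes, and Gli1, Ptch1 and Hhip are themselves targets, so that their transcripts serve as a common readout of the pathway. In growth cartilage Indian hedgehog, encoded by Ihh, is made by chondrocytes entering hypertrophy and raises PTHrP, which acts through the receptor Pth1r to delay hypertrophy. In the skull roof Pth1r is carried by osteoblasts, and Gli1 marks stem cells of the sutures.

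The sequences upstream of 3 members are shown because Hhip and Ihh had the largest separations between genotypes among the brightest probe sets of the members, and Ptch1 is the classic hedgehog target. They are the 250 bases before the RefSeq gene start on GRCm38.p6, read on the strand of the gene. Capitals mark the cAMP response element TGACGTCA or its shorter core TGACG on either strand, the sequence to which the cAMP-responsive factors downstream of Pth1r bind.
Hhip, minus strand, chr8:80058009-80058258: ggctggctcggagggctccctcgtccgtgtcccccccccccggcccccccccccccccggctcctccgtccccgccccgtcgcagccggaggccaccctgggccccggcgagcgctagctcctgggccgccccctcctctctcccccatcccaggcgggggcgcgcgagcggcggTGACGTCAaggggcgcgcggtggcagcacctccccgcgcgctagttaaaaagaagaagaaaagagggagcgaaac
Ihh, minus strand, chr1:74951673-74951922: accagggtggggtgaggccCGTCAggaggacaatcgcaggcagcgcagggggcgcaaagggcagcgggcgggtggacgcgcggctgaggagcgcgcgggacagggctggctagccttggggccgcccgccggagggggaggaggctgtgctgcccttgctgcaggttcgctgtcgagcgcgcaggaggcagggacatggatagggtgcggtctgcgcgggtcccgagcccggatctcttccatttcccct
Ptch1, minus strand, chr13:63565736-63565985: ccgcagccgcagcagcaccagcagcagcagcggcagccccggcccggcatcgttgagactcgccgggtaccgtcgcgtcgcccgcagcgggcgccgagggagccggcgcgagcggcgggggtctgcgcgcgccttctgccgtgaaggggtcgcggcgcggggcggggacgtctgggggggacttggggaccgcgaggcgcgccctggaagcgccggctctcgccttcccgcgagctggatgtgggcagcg
The Hhip window held the full element once, its first base 75 bases before the start, and such a match stood in 1.55% of 32851 windows of this length. The shorter core lies inside the full element. It was found in 3 of the 10 windows, which cover Pthlh and 7 of the 8 genes with probe sets, and in 17.8% of all windows. The Gli consensus GACCACCCA, searched on both strands, was in none of the 10 windows and in 0.225% of all, and its core CCACCCA, which lies inside it, was in none of the 10 and in 8.11% of all. These are matches of letters in a short window and say nothing about binding.

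No member differed between the genotypes past the threshold. Of the 18 probe sets, 16 passed a filter on dim signals (mean at or above 61.9 over the 5 distinct arrays) and were tested with limma on log2(signal + 16). At an adjusted p under 0.05, 0 of the 16 were higher and 0 were lower, against 0.00740% and 0.0296% of 27022 probe sets tested. At an unadjusted limma p under 0.05 the members again gave 0 in each direction, against 1.42% higher and 3.72% lower of all tested. The smallest adjusted p of a member was 0.88. The signals of both 13del-tg arrays lay above both controls for 2 of the 16 and below both for 4, against 12.6% and 23.0% of all tested probe sets. Of the 16, 6 had a positive difference, against 41.4% of all tested, and the median difference was -0.12 on the log2 scale, against -0.075 for all. Probe sets of 1 gene are not independent, and all 4 of Hhip were negative. With each gene as its brightest tested probe set, 4 of the 8 members were positive and 4 negative. Their median was 0.0054, against -0.074 and 41.2% positive for 12859 genes.

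**Figure D1:**
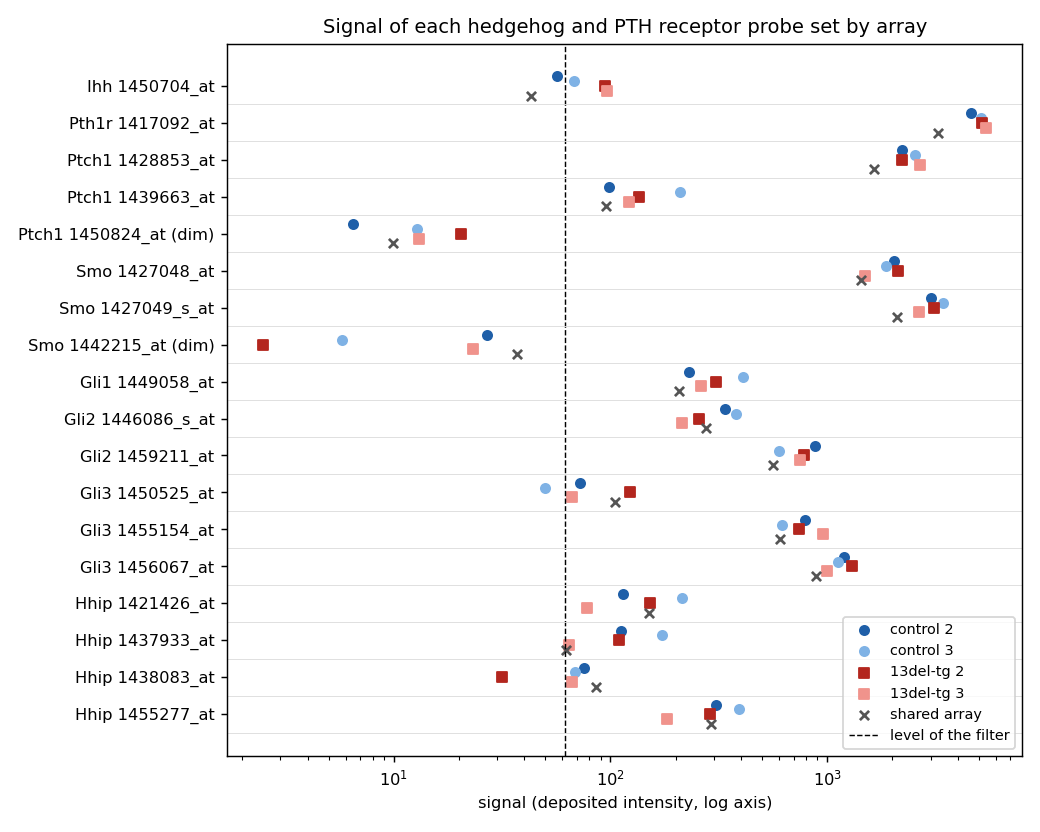
Deposited signal, on a log axis, of each of the 18 probe sets of the 8 genes, with 1 point per array: circles for controls, squares for 13del-tg, a cross for the shared array. The dashed line is the level of the filter, 61.9, and probe sets named dim did not pass it. In 11 of the 16 probe sets that passed, the cross lies left of the other 4 points.

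Ihh, the ligand, gave signals of 56.8 and 68 in controls 2 and 3 and of 94.3 and 96.4 in 13del-tg 2 and 3. The 13del-tg arrays were above both controls, while the controls lay at about the level of the filter. Mean signals were 62.4 ± 7.92 in the controls and 95.3 ± 1.48 in 13del-tg (SD, n = 2 each). The difference on the log2 scale was 0.51 (SE 0.40), and its 95% interval of -0.41 to 1.43 covers no change as well as a 2.70-fold higher level. The limma adjusted p was 0.89. The shared array had 42.9, below all 4. A single probe set stood for this gene.

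Pth1r, the receptor for PTHrP and parathyroid hormone, was well above the filter on every array. Its signal was 4594 and 5103 in the controls, 5172 and 5424 in 13del-tg and 3230 on the shared array. Both 13del-tg arrays were above both controls by small amounts, and the log2 difference was 0.13 (SE 0.18, limma adjusted p = 0.93). The 95% interval ran from -0.29 to 0.55, so a level over 1.47-fold higher lay outside it. The sign turned, to -0.11, when the shared array, whose Col10a1 signal was at the level of the controls, was taken as a 13del-tg array.

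Ptch1, the hedgehog receptor and a target of the pathway, had 3 probe sets. The brightest, 1428853_at, gave 2216 and 2547 in the controls and 2217 and 2670 in 13del-tg, so the groups overlapped almost completely. Its log2 difference was 0.035 (SE 0.21), with a 95% interval of -0.45 to 0.52, and it turned to -0.0021 with quantile normalization. The second, 1439663_at, read 98.5 and 209 in the controls and 135.9 and 121.4 in 13del-tg. The 13del-tg values both lay between the controls, and the difference of -0.15 (SE 0.42) turned to 0.032 when each array was centred on its median. The third, 1450824_at, was dim on every array, between 6.5 and 20.5, and was not tested.

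Smo, the membrane protein that Ptch1 restrains, also had 3 probe sets. Probe set 1427049_s_at gave 3030 and 3425 in the controls and 3107 and 2647 in 13del-tg. Probe set 1427048_at gave 2029 and 1871 in the controls and 2127 and 1497 in 13del-tg. On both, 13del-tg 3 was the lower of the 13del-tg arrays and 13del-tg 2 was at the level of the controls. Their differences were -0.17 (SE 0.20) and -0.13 (SE 0.24), and they turned to 0.017 and 0.058 after median centring. The third, 1442215_at, was dim on every array, from 2.5 to 37, and was not tested.

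Gli1, the target-gene activator and the usual readout of hedgehog activity, had signals of 230.4 and 409.5 in the controls and of 305.3 and 261.5 in 13del-tg, with 207 on the shared array. Both 13del-tg values lay between those of the controls, which were the highest and the lowest of the 4. The log2 difference was -0.12 (SE 0.35, limma adjusted p = 0.97). It turned to 0.067 after median centring of the arrays and to 0.28 without control 3. The 95% interval, -0.92 to 0.69, spans a level 1.90-fold lower to 1.61-fold higher, so changes of Gli1 within it cannot be told from none. These limits do not say how large a change would have passed the threshold.

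Gli2, the main activator of hedgehog targets, gave different answers on its probe sets, which the annotation ties to the same source sequence. Probe set 1446086_s_at gave 336.7 and 380.6 in the controls against 256.7 and 214.1 in 13del-tg, with 275.5 on the shared array. Both 13del-tg arrays were below both controls. Mean signals were 359 ± 31.0 in the controls and 235 ± 30.1 in 13del-tg (SD, n = 2 each). The difference on the log2 scale was -0.58 (SE 0.30). Its unadjusted limma p of 0.086 was the smallest among the members, and its adjusted p was 0.88. Over the 16 alternative settings that gave a value the difference ran from -0.70 without 13del-tg 2 to -0.39 with the shared array under both labels. Settings that change only the filter or variance model, or add the block, repeat the same difference, so the shared sign is no support. Probe set 1459211_at gave 878 and 599.9 in the controls and 782.4 and 746.5 in 13del-tg. There the 13del-tg arrays lay between the controls, and the difference was 0.072 (SE 0.27), turning to -0.20 without control 3. The difference of Gli2 therefore rests on 1 of 2 probe sets.

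Gli3, which mostly acts as a repressor in the absence of ligand, had 3 probe sets above the filter. The brightest, 1456067_at, gave 1201 and 1117 in the controls and 1297 and 999.8 in 13del-tg, a difference of -0.024 (SE 0.23) that turned to 0.16 after median centring. Probe set 1455154_at gave 791.6 and 617.9 against 739.1 and 952.9 (0.26, SE 0.26). Probe set 1450525_at, near the level of the filter, gave 72.2 and 49.7 against 122.5 and 66.5 (0.49, SE 0.45). The groups overlapped on all 3, and the signs of the differences were not the same.

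Hhip encodes a protein of the cell surface that binds hedgehog ligands and so limits the pathway that induces it. It was the one member whose 4 probe sets all passed the filter, 1438083_at only narrowly, and all had a negative difference, from -0.64 to -0.46. The brightest, 1455277_at, gave 306.5 and 391.5 in the controls, 289 and 181.4 in 13del-tg and 292.2 on the shared array. Both 13del-tg arrays were below both controls, 13del-tg 2 by little and 13del-tg 3 by more. Mean signals were 349 ± 60.1 in the controls and 235 ± 76.1 in 13del-tg (SD, n = 2 each). The difference on the log2 scale was -0.56 (SE 0.34, limma adjusted p = 0.88), with a 95% interval of -1.34 to 0.22.

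The other Hhip probe sets were dimmer. Probe set 1437933_at gave 112.4 and 173.7 in the controls against 109.2 and 64.2 in 13del-tg (-0.64, SE 0.42). Its signal on the shared array, 62.3, was below all 4, and with that array as control only the difference was -0.31. Probe set 1421426_at gave 113.9 and 214.7 against 152.7 and 78.3 (-0.46, SE 0.46), where the groups overlapped, with 150.9 on the shared array. Probe set 1438083_at gave 75.8 and 68.4 against 31.7 and 66.2 (-0.49, SE 0.47), with 85.4 on the shared array. Its 13del-tg 2 signal was below the level of the filter, 61.9, which it passed only narrowly and through the other arrays. A negative sign of a probe set that passes in this way is no support. The arrays were not in the same order on the 4: 13del-tg 3 was the lowest of the 4 compared arrays on 3 of them, but on 1438083_at 13del-tg 2 was. The 4 probe sets read 1 gene in the same RNA and are not independent. Their differences were negative in every alternative setting that gave a value, though some of these settings cannot turn a sign. For the brightest they ran from -0.88 without 13del-tg 2 to -0.25 without 13del-tg 3, so the size rests on 13del-tg 3.

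**Figure D2:**
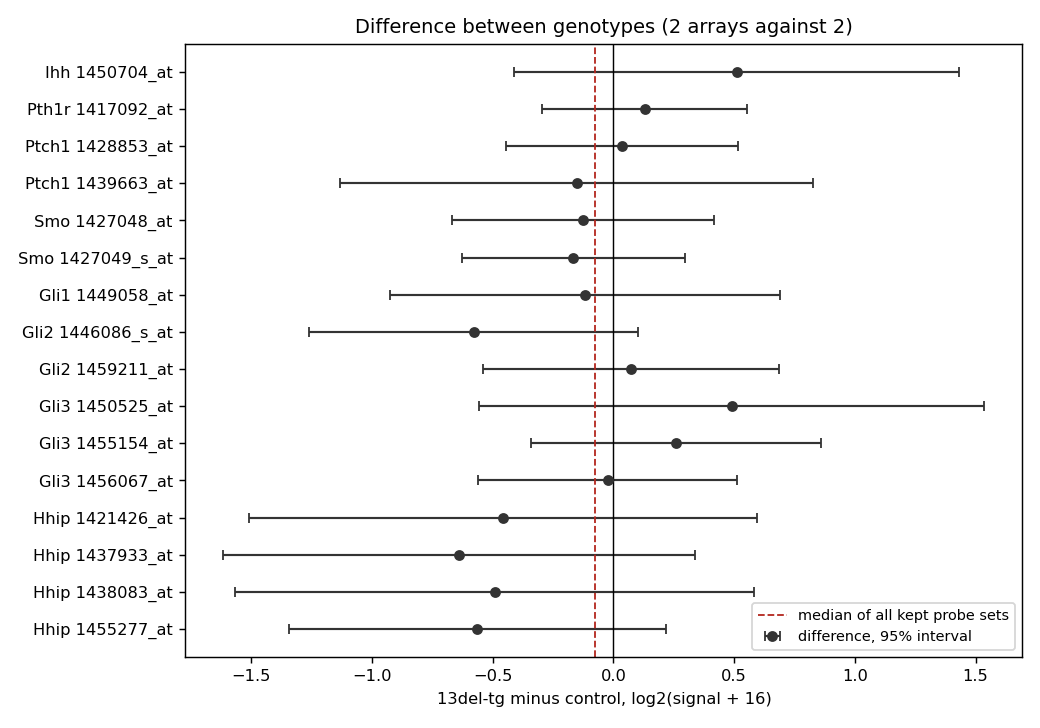
Difference of 13del-tg from control on the log2(signal + 16) scale for each of the 16 tested probe sets, with points for the estimate and bars for its 95% interval (2 arrays against 2). The dashed line is the median of all tested probe sets, -0.075. All 16 bars cross 0, and the 4 Hhip points lie together between -0.64 and -0.46.

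The probe sets of a gene often differed in sign. Of the 5 members with several tested probe sets, Smo and Hhip had 1 sign throughout, and Ptch1, Gli2 and Gli3 had both. The shared array was below all 4 compared arrays on 11 of the 16 tested member probe sets, above them on 1 and between them on 4. Over all tested probe sets it was below the 4 in 20.9% and above them in 27.1%.

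Likeness of pattern was measured as the root mean square difference of log2 values, each gene centred on its own mean over the 5 distinct arrays, across 12859 genes. For Hhip, whose brightest probe set ranged most among the members (1.05), the nearest genes were Dis3l2 (0.033), Arrb2 (0.042) and Limk2 (0.055). For Ihh (range 0.93) they were Txnip (0.061), Sema3d (0.064) and Hnrnpll (0.077), and for Gli1 (range 0.93) Prcp (0.047), Ulk4 (0.053) and Gfap (0.057). With 5 arrays, many genes have a near neighbour.

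The wider pathways were read through 5 lists, each gene standing as its brightest tested probe set. No gene in them passed over all probe sets by limma. Among all 12859 genes 41.2% had a positive difference, the median was -0.074, and at an unadjusted p under 0.05 1.54% were higher and 4.68% lower. Of 13 genes for ligand processing and co-receptors, 10 were tested. Of these, 4 were positive and 6 negative, the median difference was -0.071 (0.13 when 13del-tg 3 was left out, -0.34 when 13del-tg 2 was), and 0 had an unadjusted p under 0.05. The glypicans Gpc4 and Gpc3, cell-surface proteoglycans that bind hedgehog, came first with 0.32 (SE 0.18) and 0.25 (SE 0.19). Gpc4 gave 4196 and 4201 in the controls and 5248 and 5232 in 13del-tg, with no overlap. The co-receptor Cdon had -0.29 (SE 0.25) and Disp1, which releases the ligand from the cell, -0.40 (SE 0.39), both with overlapping groups. Of the 2 tested probe sets of Disp1, 1 was positive.

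In the list of the hedgehog cascade inside the cell, 15 of 16 genes were tested, 8 positive and 7 negative, with a median of 0.046 and 0 at an unadjusted p under 0.05. That median was below 0 when either control 2 or 13del-tg 2 was left out (-0.11 for the latter), 0.15 when 13del-tg 3 was, and 0.23 after median centring. Spop, an adaptor that marks Gli proteins for degradation, had 0.32 (SE 0.19), and the kinase gene Csnk1a1, which phosphorylates Gli proteins, had 0.30 (SE 0.18). Of the 4 tested probe sets of Csnk1a1, 3 were positive. Prkaca, the catalytic subunit of the cAMP-dependent kinase, had 0.52 (SE 0.31), and Arrb2, an arrestin, -0.48 (SE 0.30). The Prkaca signal was lowest on control 3 (1164), the array on which skeletal muscle markers were lowest too, and the part of muscle in it was not tested.

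The list of hedgehog targets other than the members had 12 of 15 genes tested, 4 positive and 8 negative, and a median of -0.090. At an unadjusted limma p under 0.05 there was 1 higher and 1 lower. The higher one was Ccnd1, a cyclin of the cell cycle, with 2338 and 1845 in the controls and 3481 and 2725 in 13del-tg (0.56, SE 0.23, adjusted p = 0.88). The lower one was Bmp4, a bone morphogenetic protein, with 1095 and 1193 in the controls and 921.8 and 549.3 in 13del-tg (-0.67, SE 0.29, adjusted p = 0.88). Foxc2, a forkhead factor of skeletal mesenchyme, had -0.74 (SE 0.32) and the kinase gene Cdk6 -0.53 (SE 0.24). None of these is governed by hedgehog alone.

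Downstream of Pth1r, 22 of 25 genes of the receptor cascade were tested, 11 in each direction, with a median of -0.049. An unadjusted p under 0.05 was reached by 2 of them, both lower. Arrb1, an arrestin that ends signalling by the receptor, gave 797.3 and 1011 in the controls and 396.2 and 466 in 13del-tg, with 482.4 on the shared array. The 13del-tg arrays were well below both controls, with a log2 difference of -1.04 (SE 0.26, limma adjusted p = 0.66). The shared array, whose Col10a1 signal was at the level of the controls, was also well below both, near the 13del-tg arrays. Sik2, a kinase that the PTH signal inhibits, had -0.57 (SE 0.23), and Adcy3, an adenylyl cyclase, -0.48 (SE 0.21). For these genes too the shared array, with 1008 for Sik2 and 1025 for Adcy3, was below controls 2 and 3.

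The list of PTH and cAMP targets had 16 of 18 genes tested, 12 positive and 4 negative, with a median of 0.24 that was 0.15 without control 2, 0.12 without 13del-tg 2 and 0.39 without 13del-tg 3. At an unadjusted p under 0.05, 3 were higher and 1 was lower, and the groups did not overlap for 6 above (37.5%) and 1 below (6.25%), against 13.4% and 26.3% of all genes. In this list Sost encodes the Wnt inhibitor sclerostin, Tnfsf11 encodes RANKL, and the Nr4a genes encode nuclear receptors. Whether PTH signalling differed between the genotypes was not tested. Nr4a2 gave 318.2 and 146.4 in the controls and 610.9 and 564.8 in 13del-tg, with 322 on the shared array. Its difference was 1.37 (SE 0.38, limma adjusted p = 0.78), and 5 of its 6 tested probe sets were positive. Sost had -1.65 (SE 0.24, limma adjusted p = 0.14) and Tnfsf11 0.92 (SE 0.37, limma adjusted p = 0.88). Tnfsf11 gave 334.8 and 303.8 in the controls and 426.5 and 894.4 in 13del-tg, so its size rests mostly on 13del-tg 3. Ptgs2, the inducible prostaglandin synthase, had 1.72 (SE 0.39, limma adjusted p = 0.58). Its control signals, 66.9 and 55.8, were at about the level of the filter. Nr4a3 had 0.73 (SE 0.44) and Nr4a1 0.10 (SE 0.35). Rgs2 had -0.17 (SE 0.28), and Fos (0.18), Crem (0.27) and Mmp13 (0.20) overlapped between the groups. Of the 2 tested probe sets of Crem, 1 was positive. The genes of this list answer to other signals too, and several were known to differ in these data when the list was written. The counts of the list beside those of all genes are therefore no test of it.

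**Figure D3:**
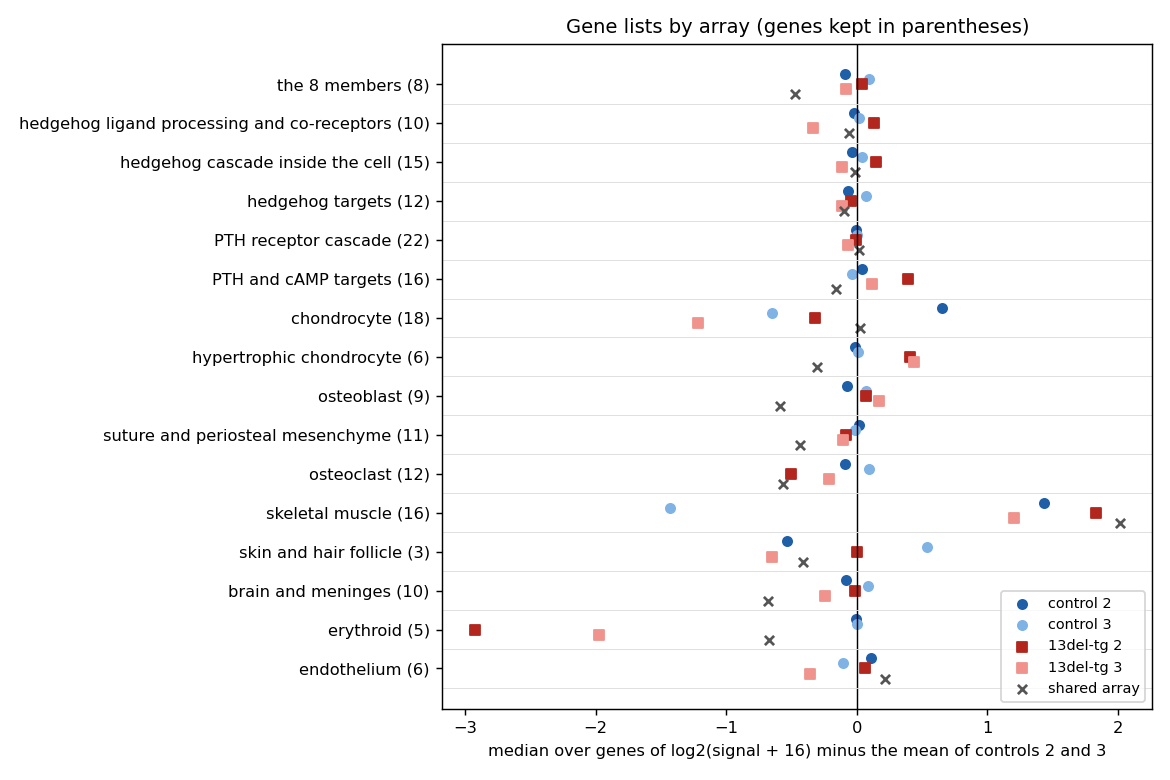
Median over the tested genes of each list, as log2(signal + 16) minus the mean of controls 2 and 3, for each of the 5 distinct arrays, with the number of genes in parentheses. The 4 compared arrays lie within 0.2 of each other for the members, and spread widely for chondrocyte, skeletal muscle and erythroid genes.

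As a check of the labels, Col10a1 read 149.8 and 158.2 in controls 2 and 3, 15689 and 11584 in 13del-tg 2 and 3 and 152.2 on the shared array (limma adjusted p = 9.45e-05), so the shared array goes against its 13del-tg label. Marker lists of other cell types differed between the arrays. Chondrocyte markers, of which 17 of 18 had a negative difference (median -0.83), stood at 0.65 and -0.65 in controls 2 and 3, at -0.32 and -1.22 in 13del-tg 2 and 3 and at 0.028 on the shared array. Without 1 array that median ran from -1.39 (without control 3) to -0.32 (without 13del-tg 3). Skeletal muscle markers, 15 of 16 positive (median 1.51), stood at -1.43 in control 3, at 1.43 in control 2, at 1.83 and 1.21 in 13del-tg and at 2.02 on the shared array, and the median was 0.21 without control 3 and 3.06 without control 2. Osteoblast markers were at -0.072 and 0.072 in the controls, 0.070 and 0.17 in 13del-tg and -0.59 on the shared array. The members had -0.47 there, and other lists were low there too. Those were osteoclast (-0.57), suture and periosteal mesenchyme (-0.43), brain and meninges (-0.68), erythroid (-0.67), skin and hair follicle (-0.41) and hypertrophic chondrocyte (-0.30). Endothelial genes had 0.22. Of the remaining lists, all 12 osteoclast genes (median -0.36) and all 5 tested erythroid genes (median -2.49) had a negative difference. The 10 brain and meninges genes (median -0.10, and 0.29 with a 60th percentile filter, 0.097 after quantile normalization and 0.084 after median centring) went both ways. Among them Snap25, a protein of synapses, fell and passed the threshold (-3.86, SE 0.40, limma adjusted p = 0.038), from 462.1 and 733 in the controls to 18.5 and 33.4 in 13del-tg, with 24.2 on the shared array. The Snap25 signals on 13del-tg and the shared array were below the level of the filter, 61.9, which Snap25 passed through controls 2 and 3. The size of the fall therefore rests on dim signals. The shared array, at the Col10a1 level of the controls, was as low in Snap25 as the 13del-tg arrays. With it as control only, the difference was -2.56 (limma adjusted p = 0.94). The limma adjusted p was 0.15 without a filter, 0.068 with quantile normalization and 0.0092 with robust eBayes. The difference was -3.53 without control 3 and -3.60 without 13del-tg 2, and ran from -4.49 to -2.56 over the 16 alternatives that tested it. Snap25 was named here after its values were seen. Syt1 had -1.33, Ptgds 0.57 and Crabp2 0.67, none past the threshold. The part of neural tissue in the members' values was not tested. The medians were -0.20 over 6 endothelial genes (0.065 when 13del-tg 3 was left out) and -0.45 over 3 of 10 genes of skin and hair follicle. In whole bone, fewer cells of a type and less RNA per cell cannot be told apart.

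Chondrocytes carry Hhip, Ihh and Pth1r. The chondrocyte list was lowest on 13del-tg 3 and highest on control 2. The brightest Hhip probe set was lowest on 13del-tg 3 and highest on control 3. Ihh and Pth1r were higher on 13del-tg 3 than on either control. All 6 genes of the hypertrophic chondrocyte list, of which Ihh and Pth1r are members, had a positive difference (median 0.31). That count is not independent of genotype or of the members, since the list holds Col10a1, the gene of the transgene, and 2 members. Of the other 3, Ibsp (0.34), which osteoblasts also make, did not overlap between the groups, and Panx3 (0.29) and Mmp13 (0.20) did. None of these 3 passed the threshold. Markers of sutures and periosteum, the seat of Gli1 cells, had 4 positive and 7 negative of 11 (median -0.12). The part of cell composition in the members' values was not tested.

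**Figure D4:**
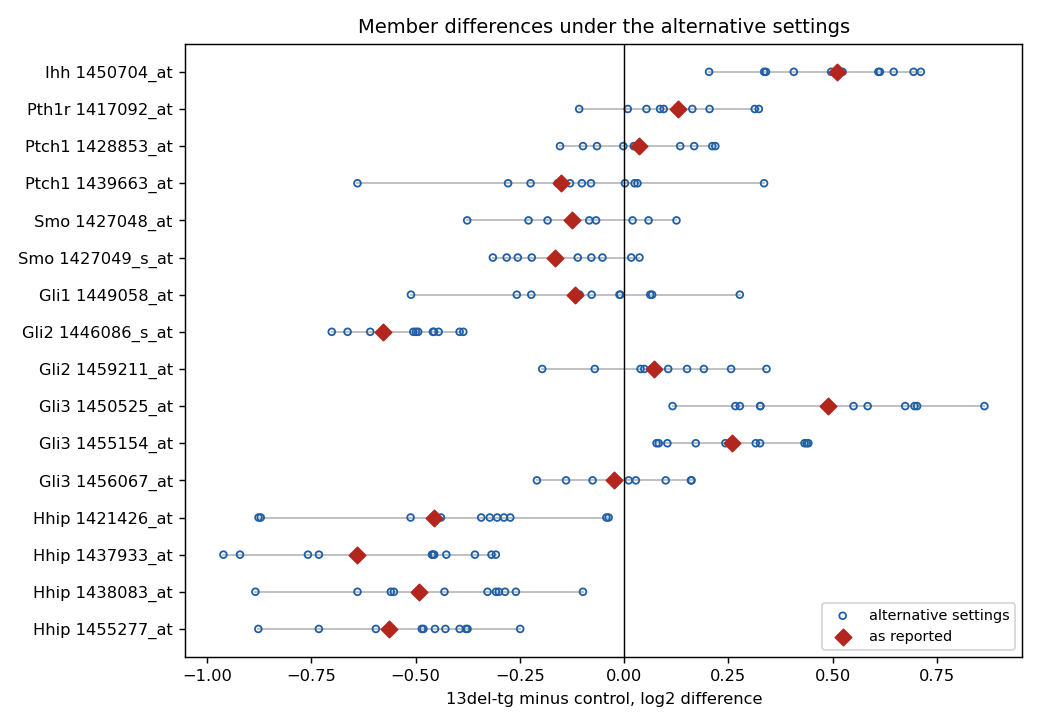
Log2 difference of 13del-tg from control for each of the 16 tested probe sets as reported (diamond) and under the alternative settings (open circles), with a line over their range. The circles of Ihh, of Gli2 1446086_s_at, of 2 Gli3 probe sets and of all 4 Hhip probe sets stay on 1 side of 0, and those of the other 8 cross it. Some of the settings cannot turn a sign.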

How the data were processed

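The deposited files hold 1 intensity, on a linear scale, for each probe set and array. MAS5 is the tool named in the submitters' processing notes, and no version is recorded there. The mean intensity after trimming 2% from both ends was 500.003 on all arrays, so they had been scaled before deposit. MAS5 signals near background are noisy on a log scale, and no detection calls were used.

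Signals were analysed as log2(signal + 16) without other scaling. Of 45037 probe sets, not counting 64 controls, the 27022 whose average log2 value reached the 40th percentile (6.28) were tested with limma 3.58.1 in R 4.3.3 (lmFit, eBayes with trend), in two-sided tests. The p-values were adjusted by Benjamini-Hochberg over these probe sets, and 0.05 was the threshold. There were 2 residual and 6.01 prior degrees of freedom. The probe set was the unit tested, and lists took the brightest tested probe set of each gene. The annotation gave 34945 probe sets 1 symbol, 932 several and 9160 none. The code was also tested on simulated data. Promoter windows came from RefSeq, and their strand was checked against 12 miRNA hairpins inside such windows.

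Members and lists were chosen with earlier results of these data known. Named genes are all member probe sets, Col10a1, up to 4 genes of each pathway list by unadjusted p, and the nearest 3 genes in pattern to the 3 members with the widest range. Nr4a1, Nr4a3, Rgs2, Fos, Crem and Mmp13 were added once their values were known. The labels do not say whether a shared replicate number stands for a litter or batch, so the reported fit has no block. Alternatives were other pseudocounts, filters, scalings, variance models, uses of the shared array, arrays left out, the replicate number as a block and 1 probe set per gene.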

Additional observations from a re-analysis of the deposited data

How the results depend on the processing

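No member probe set had an unadjusted or adjusted limma p under 0.05 in any of the 17 alternative settings, and 234 of 258 member values kept their sign. The other 24 turned. Not all of the 258 could turn. Other filters, robust eBayes, no trend, the block and 1 probe set per gene leave the difference of a probe set as it was. The shared array under both labels only shrinks it. With arrays centred on the median, which moved the median of all probe sets by 0.18, values became 0.058 and 0.017 for the 2 Smo probe sets, 0.032 for Ptch1 1439663_at, 0.067 for Gli1 and 0.16 for Gli3 1456067_at. With quantile normalization they became -0.0021 and 0.0020 for Ptch1 and 0.011 for that Gli3 probe set. With the shared array as control only they were 0.020 and 0.037 for Smo, 0.025 for Ptch1 1439663_at, 0.063 for Gli1 and 0.10 for Gli3, and with it as 13del-tg only -0.11 for Pth1r, -0.15 for Ptch1 1428853_at and -0.070 for Gli2 1459211_at. Leaving out 1 array, which leaves 1 in its group that is assumed to vary like the others, gave -0.38 to 0.13 for Smo 1427048_at, -0.099 to 0.17 and -0.64 to 0.34 for Ptch1, -0.51 to 0.28 for Gli1, -0.21 to 0.16 for Gli3 1456067_at and -0.20 to 0.34 for Gli2 1459211_at.

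Over all probe sets, 2 were higher and 8 lower at an adjusted p under 0.05. There was 1 higher and 1 lower with a pseudocount of 1, a 60th percentile filter or quantile normalization. There was 1 higher and 0 lower without a filter, without the trend and with the shared array as control, with 1750, 1148 and 1125 lower at an unadjusted limma p under 0.05. With that array as 13del-tg alone, 0 were higher (667 unadjusted), and with it under both labels 0 and 0 (31 and 263 unadjusted). The count of lower probe sets was 5 with a pseudocount of 64, 21 with arrays centred on the median and 18 with robust eBayes. Without 1 array the counts ran from 1 to 199 higher and from 5 to 43 lower. Of the probe sets with an unadjusted p under 0.05, 27.6% were higher, against 63.1% with arrays centred on the median and 40% with quantile normalization. With the replicate number as a block, 330 were higher and 338 lower, none of them a member. The deviations of control 2 and 13del-tg 2 from their group means correlated at 0.22 over all tested probe sets. Of 272 list medians 224 moved by less than the spread between arrays, and the cause of the other moves was not tested.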
